A study of Mus musculus with 18 samples.

Results

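The genes described here are 10 known direct targets of the transcription factor p53: Cdkn1a, Btg2, Plk2, Ccng1, Mdm2, Bax, Perp, Trp53inp1, Zmat3 and Phlda3. They were chosen by name from a list of p53 targets, with earlier results of these data known. All 10 were found among the 25909 genes of the deposited tables. The study measured polyA RNA in 18 libraries of SGET mouse cells, a reporter line of B6CBA/129 background, with 3 libraries in each of 6 groups. The groups were Esrrb knockout (KO) and wild-type (WT) cells as epiblast-like cells (EpiLC), as primordial germ cell-like cells (PGCLC) on day 3 and as PGCLC on day 5. Esrrb encodes an orphan nuclear receptor of the naive pluripotency network. EpiLC were made from embryonic stem cells kept in 2i and LIF medium, by plating on fibronectin with ActivinA and bFGF, and were not sorted. PGCLC were made from EpiLC with BMP4, LIF, SCF, BMP8a and EGF and were sorted as SG+ETlow cells, a gate on the line's 2 reporters. The KO groups hold 1 library each from lines A5, B1 and A2 at every stage. The labels do not say that the 3 WT libraries of a stage came from separate cultures, so the spread between them may be technical. In the fit of all 18 libraries, p-values rest on 1 estimate of the spread per gene, shared by WT libraries and KO lines.

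p53 is a transcription factor that is kept low in unstressed cells by the ubiquitin ligase Mdm2 and accumulates after DNA damage and other stress. It then switches on genes that stop the cell cycle, repair DNA or start cell death, and it also switches on Mdm2, which closes a negative feedback loop. Mouse pluripotent cells hold abundant p53 protein, and p53 activity is known to restrain their fitness and to favour exit from self-renewal. RNA levels of target genes report on transcript abundance only, and p53 protein was not measured in the libraries described here.

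Libraries held 3032965 to 5286330 counts (median 4246221), and the 10 genes were read by 34 to 3603 counts per library. All 10 passed the filter on low counts, as did 12856 genes in all. The targeted gene Esrrb was lower in KO than in WT PGCLC, with 161, 165 and 90.4 CPM (counts scaled to the library total) in KO lines A5, B1 and A2, against 625, 591 and 613 CPM in WT on day 3, and 148, 204 and 129 CPM in KO, against 597, 606 and 574 CPM in WT on day 5. In EpiLC, Esrrb stood at 6.82 and 4.57 CPM in KO lines A5 and B1 and at 38.6 CPM in the library labelled KO A2, against 32.2, 26.9 and 19.8 CPM in WT. The EpiLC library labelled KO A2 was therefore not below WT in Esrrb RNA, and calls of KO against WT in EpiLC are given with and without it. Its medians on chromosomes 1, 11 and 16, given below, were close to those of the day 3 and day 5 libraries of line A2. The labels do not give the position of the lesion, and reads from outside it can remain. In that library the summed level of 12 mesenchyme and fibroblast markers was 7379 CPM, against 785 and 555 CPM in the KO A5 and B1 EpiLC libraries and 600 to 645 CPM in WT EpiLC. Its 12 trophoblast markers summed to 1515 CPM, against 255 and 108 CPM in KO A5 and B1 and 63.5 to 71.6 CPM in WT, and its 12 endoderm markers to 3721 CPM, against 641 and 390 CPM in KO A5 and B1 and 317 to 327 CPM in WT. Of these defining markers, Elf5 was at 0 in every EpiLC library and Foxa2 and Postn in every WT EpiLC library. Formative epiblast markers, which define EpiLC, summed to 2294 CPM in it, against 4179 and 4575 CPM in KO A5 and B1 and 5802 to 5953 CPM in WT. The sum of 12 germ cell markers was 1041 to 1427 CPM in KO and 1342 to 1541 CPM in WT PGCLC over both days, against 224 to 292 CPM in all 6 EpiLC libraries.

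Line A2 also carried shifts in the median level of 2 chromosomes that hold genes described here. Levels along each chromosome were not examined. The median log2 ratio of genes on chromosome 1 to the WT mean of the stage was 0.31, 0.28 and 0.29 in its EpiLC, day 3 and day 5 libraries, and on chromosome 11 it was -0.47, -0.44 and -0.49. Btg2 and Phlda3 lie on chromosome 1, and Ccng1 and Trp53, which encodes p53, lie on chromosome 11. On the chromosomes of the other 7 genes the medians of all 9 KO libraries stayed between -0.06 and 0.11. Such shifts were not found in line A2 alone: on chromosome 16, which holds none of the 10 genes, the medians were -0.44, -0.46 and -0.49 in line A2 and -0.41, -0.45 and -0.41 in line B1, against 0.02 to 0.04 in line A5. The part of these shifts in the results for Btg2, Phlda3, Ccng1 and Trp53 was not tested.

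**Figure D1:**
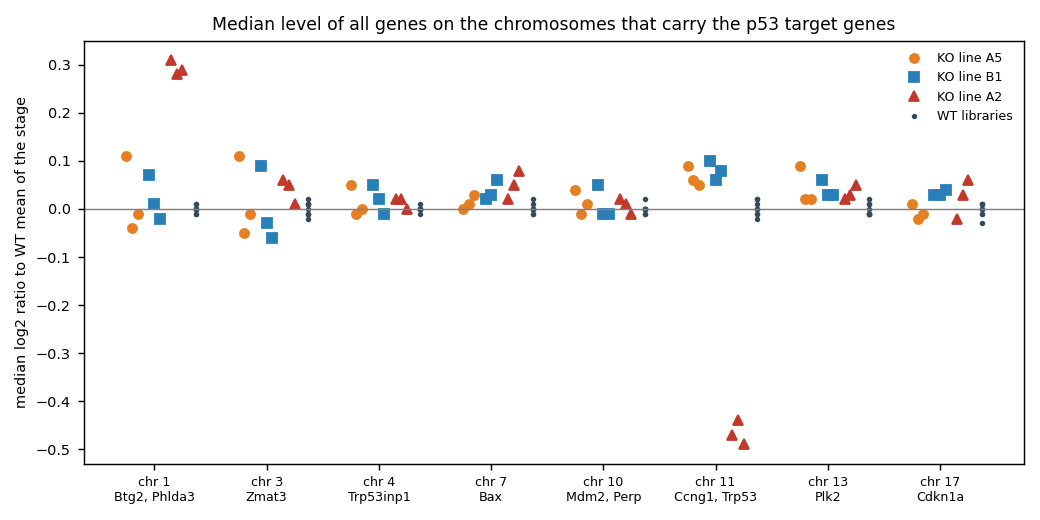
Median log2 ratio of all genes on each chromosome that carries a p53 target gene (y axis) in each KO library, coloured by line and drawn in the order EpiLC, day 3, day 5, with the WT libraries as small dots. Line A2 stands at 0.28 to 0.31 on chromosome 1 and at -0.49 to -0.44 on chromosome 11 at all 3 stages.

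The sequence before the start of the genes was examined for the p53 response element, which is made of adjoining 10-base motifs, each known as the p53 decamer. RefSeq (GRCm38.p6) promoter windows, from 250 bases before to 50 bases after a start, were found for 7 of the 10 genes, and not for Perp, Trp53inp1 and Zmat3. The decamer reads the same on both strands. It was found in windows of 4 of these genes, Cdkn1a, Mdm2, Ccng1 and Bax, and in 8.36% of all 32841 windows. A 20-base element of 2 adjoining decamers with at most 1 mismatch was found in 29 windows (0.0883%), among them those of Cdkn1a and Ccng1. The element of Cdkn1a began 51 bases before the start, at chr17:29090928-29090947 on the plus strand, and a separate decamer lay just before it. A second Cdkn1a window, around a later start (chr17:29093519-29093818), held no decamer, and the distances given are from the first start. The element of Ccng1 began 195 bases before the start, at chr11:40755462-40755481 on the minus strand, and overlaps the decamer counted there. The window of Mdm2 held a single decamer, 186 bases before the start, and the gene is known to carry a p53-responsive promoter in the first intron, which lies outside the window. These 3 sequences are shown because Cdkn1a and Ccng1 hold the closest matches and Mdm2 differed from both in its pattern over the stages, and each gives the 250 bases before the start, 5′ to 3′, with decamers and elements in capitals. They cover chr17:29090729-29090978 (plus strand), chr11:40755287-40755536 (minus strand) and chr10:117710759-117711008 (minus strand). A match is a description of the letters and not a measured binding site.
Cdkn1a: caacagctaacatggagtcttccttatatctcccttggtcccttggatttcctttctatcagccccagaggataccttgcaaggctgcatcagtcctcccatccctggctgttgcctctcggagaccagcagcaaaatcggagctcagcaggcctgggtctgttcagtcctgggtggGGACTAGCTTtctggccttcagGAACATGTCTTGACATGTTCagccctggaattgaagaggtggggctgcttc
Ccng1: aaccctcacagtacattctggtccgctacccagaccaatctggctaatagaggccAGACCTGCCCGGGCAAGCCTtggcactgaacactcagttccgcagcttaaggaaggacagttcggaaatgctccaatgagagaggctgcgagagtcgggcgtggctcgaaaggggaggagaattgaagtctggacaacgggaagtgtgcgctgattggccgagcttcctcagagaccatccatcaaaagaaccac
Mdm2: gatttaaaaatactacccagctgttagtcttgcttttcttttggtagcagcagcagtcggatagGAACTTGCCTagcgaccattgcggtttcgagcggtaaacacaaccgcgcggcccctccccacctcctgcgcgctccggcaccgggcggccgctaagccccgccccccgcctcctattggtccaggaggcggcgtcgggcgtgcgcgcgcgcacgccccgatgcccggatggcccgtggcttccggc

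Set per kilobase of exon sequence (CPM per kb), the genes spanned a wide range of levels in WT EpiLC. Ccng1 (153 ± 9.12) and Bax (145 ± 8.75 CPM per kb) were highest and did not differ beyond their spread. Phlda3 (31.7 ± 0.847), Mdm2 (27.6 ± 2.42) and Trp53inp1 (27.3 ± 1.64 CPM per kb) followed, the last 2 within their spread of each other. Zmat3 (13.8 ± 0.321), Cdkn1a (13.0 ± 0.759), Btg2 (9.58 ± 0.185), Plk2 (8.32 ± 0.845) and Perp (5.11 ± 0.933 CPM per kb) were lowest (SD, n = 3 each). In KO EpiLC, Cdkn1a stood at 40.8 ± 21.0 and Perp at 20.9 ± 13.4 CPM per kb (SD, n = 3 each), and Zmat3 stood at 17.2 ± 1.06 CPM per kb. The order at the low end differed between the KO lines: Perp was at 13.1 and Plk2 at 12.1 and 16.3 CPM per kb in KO A5 and B1, below Zmat3 at 16.2 and 17.1 in A5 and in B1, while in the library labelled KO A2 Zmat3 (18.3) was below Perp (36.3) and Plk2 (53.4 CPM per kb). These levels use the union of annotated exons of GENCODE M21, which understates genes with long exons of rare transcripts.

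**Figure D2:**
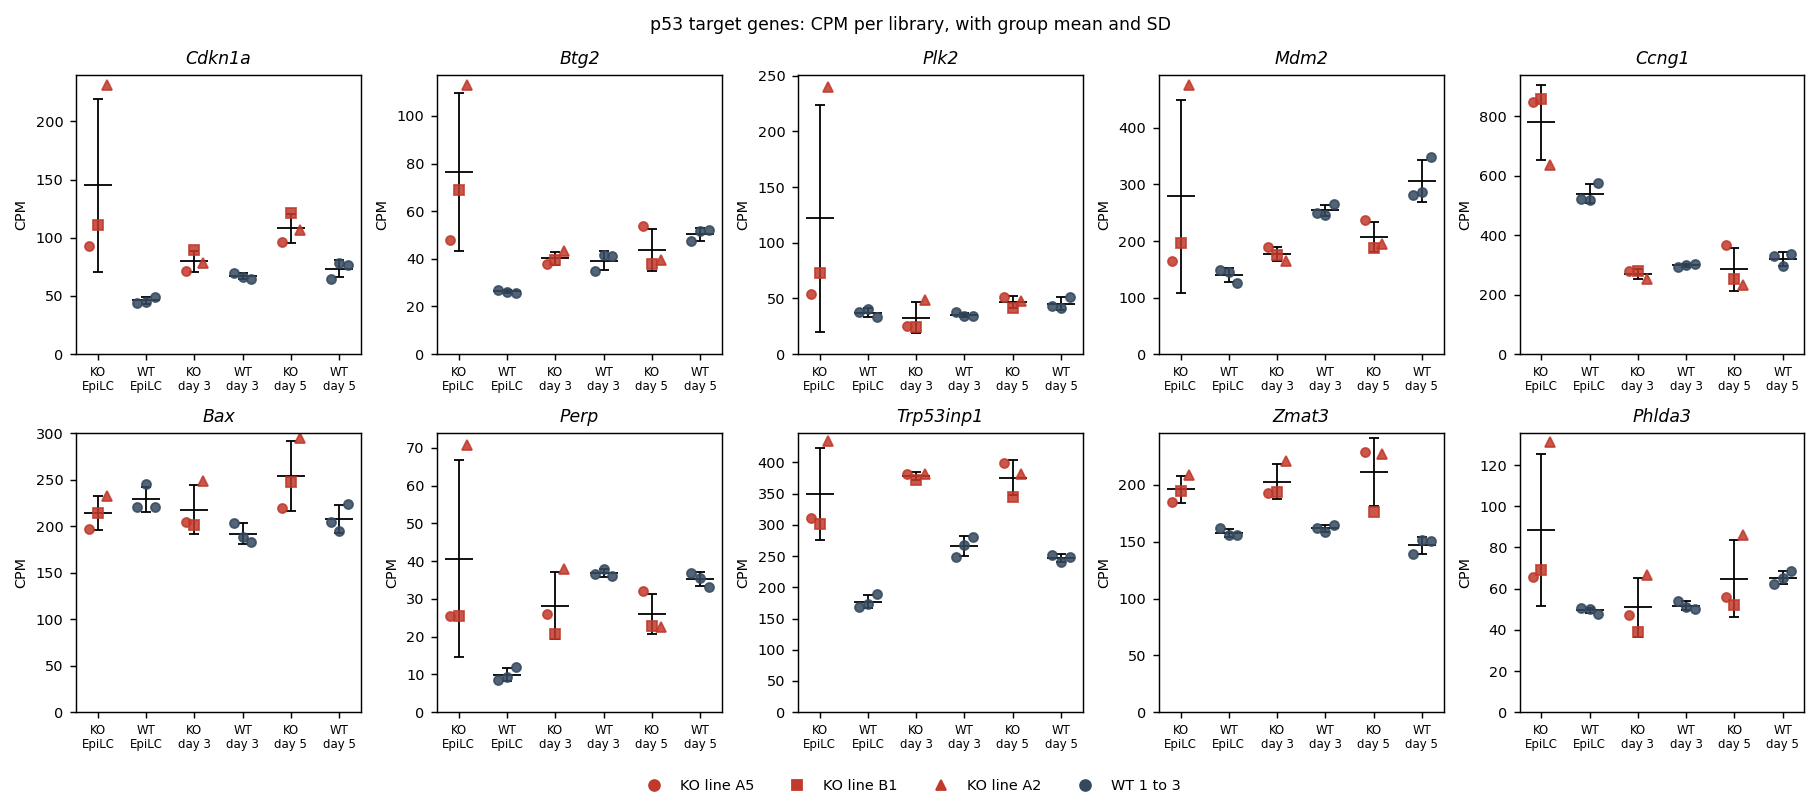
CPM (y axis, from 0) of the 10 p53 target genes in each of the 18 libraries, with KO left of WT at each stage; red symbols are KO lines (circle A5, square B1, triangle A2), dark circles are WT libraries, and bars give the mean and SD of 3 libraries. Trp53inp1 and Zmat3 are higher in every KO library than in every WT library of the stage at all 3 stages, and the library labelled KO A2 is the highest EpiLC library for 8 genes.

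In KO EpiLC, 7 of the 10 p53 targets were higher than in WT EpiLC at an adjusted p under 0.05 (edgeR quasi-likelihood test, Benjamini-Hochberg over 12856 genes) and 0 were lower, against 6.93% of all tested genes higher and 4.15% lower. The cell cycle genes Cdkn1a, Btg2, Plk2 and Ccng1, the p53 antagonist Mdm2, the membrane protein gene Perp and the p53 cofactor gene Trp53inp1 rose, by 0.48 to 1.99 on the log2 scale. The median log2 fold change was 0.95 over the 10 genes and 0.01 over all tested genes, or 0.64 and 0.00 without the library labelled KO A2. For 9 of the 10 genes every KO library was above every WT library, which held for 20.0% of all genes. Without the library labelled KO A2, 5 were higher (Cdkn1a, Btg2, Ccng1, Perp and Trp53inp1) and 0 lower, against 2.29% and 2.28% of all genes in that fit. Without all 3 libraries of line A2, 7 were higher and 0 lower, with Plk2 and Phlda3 added to these 5. The share of all genes in the fit without line A2 is not given here. When only the 6 EpiLC libraries entered the fit, 0 of the 10 passed (8 at an unadjusted p under 0.05, lowest adjusted p 0.144), as did 0 of all 11876 genes tested (2425 unadjusted). In the fit of all 18 libraries DESeq2 called 8 of the 10 and limma 9, against 1824 and 1307 of all genes called in either direction. In bulk RNA, more cells with a transcript and more of it per cell cannot be told apart.

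Cdkn1a (chr17:29090976-29100727) encodes p21, the inhibitor of cyclin-dependent kinases through which p53 arrests the cell cycle. It had 93.3, 111 and 231 CPM in KO A5, B1 and the library labelled KO A2, against 44.3, 44.7 and 49.2 CPM in WT EpiLC. The groups did not overlap, and the library labelled KO A2 was the farthest above WT. On the log2 scale the fold change was 1.62 ± 0.25 (SE; adjusted p = 0.00395), or 1.08 (adjusted p = 0.000397) with the library labelled KO A2 left out.

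Btg2 (chr1:134075170-134079120), an antiproliferative gene that acts in mRNA deadenylation, had 47.7, 68.8 and 113 CPM in KO EpiLC and 26.8, 26.2 and 25.8 CPM in WT EpiLC. The groups did not overlap, and the log2 fold change was 1.50 ± 0.23 (SE; adjusted p = 0.00386; 1.07 and 0.00173 without the library labelled KO A2). Plk2 (chr13:110395046-110400844), a stress-responsive polo-like kinase, had 54.3, 73.1 and 240 CPM in KO and 37.7, 40.9 and 33.4 CPM in WT. Its groups did not overlap either, but 1 library carried most of the difference. The log2 fold change of 1.68 ± 0.42 (SE; adjusted p = 0.0235) was 0.70 without the library labelled KO A2 (adjusted p = 0.0864). The call was also lost without WT EpiLC library 1, 2 or 3 (adjusted p 0.0754 to 0.0884). Without every library of line A2, the fold change of Plk2 was 0.69 and passed (adjusted p = 0.00134). Ccng1 (chr11:40748552-40755311), encoding cyclin G1, a partner of protein phosphatase 2A in the regulation of Mdm2, had 847, 858 and 635 CPM in KO and 521, 519 and 576 CPM in WT. Here the library labelled KO A2 was the lowest of the KO libraries, 1.18 times the WT mean against 1.57 and 1.59 times in A5 and B1, and the median of chromosome 11 in it was -0.47 on the log2 scale. The log2 fold change was 0.48 ± 0.13 (SE; adjusted p = 0.0311). It passed the threshold without the library labelled KO A2 (0.59, adjusted p = 0.0155), but not without KO A5 (0.43) or KO B1 (0.41; adjusted p = 0.0577 in both), nor without WT EpiLC library 1, 2 or 3 (0.45 to 0.53, adjusted p 0.0715 to 0.11).

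Mdm2 (chr10:117688875-117710758), the ubiquitin ligase that targets p53, had 165, 197 and 476 CPM in KO EpiLC and 149, 146 and 126 CPM in WT EpiLC. KO A5 was 1.17 times and KO B1 1.40 times the WT mean, and the library labelled KO A2 was 3.39 times. Its log2 fold change was 0.96 ± 0.28 (SE; adjusted p = 0.0401) and, without the library labelled KO A2, 0.29 (adjusted p = 0.166). The call was lost in 11 of the 18 fits that leave out 1 library: besides that one, each WT EpiLC library (adjusted p 0.103 to 0.13) and each WT PGCLC library and KO B1 on day 3 (adjusted p 0.0505 to 0.0552). Adjusted p ran from 0.00658 to 0.247 over the 24 alternatives tried.

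Of the genes linked to cell death, Perp (chr10:18845020-18857073), a tetraspan protein of desmosomes and apoptosis, had 25.6, 25.6 and 70.9 CPM in KO EpiLC and 8.61, 9.28 and 12.0 CPM in WT EpiLC. The KO libraries were 2.57, 2.57 and 7.11 times the WT mean. Over both groups the log2 fold change was 1.99 ± 0.36 (SE; adjusted p = 0.00693), the largest of the 10 genes, and 1.29 (adjusted p = 0.00424) without the library labelled KO A2. Bax (chr7:45461697-45466898), the pore-forming effector of mitochondrial apoptosis, had 197, 214 and 233 CPM in KO and 221, 245 and 221 CPM in WT. It was the only gene of the 10 whose groups overlapped in EpiLC, with a log2 fold change of -0.14 ± 0.12 (SE; adjusted p = 0.446; -0.23 and 0.311 without the library labelled KO A2). Phlda3 (chr1:135766119-135769136), a pleckstrin homology domain protein that restrains Akt, had 65.6, 69.0 and 131 CPM in KO and 50.4, 50.0 and 47.9 CPM in WT. Its log2 fold change was 0.80 ± 0.26 (SE; adjusted p = 0.054), just short of the threshold. The gene passed without KO A5 or KO B1 (adjusted p = 0.0208 and 0.0232) and without the KO A2 library of day 3 or day 5 (0.0412 and 0.0389), and stood at 0.37 (adjusted p = 0.31) without the library labelled KO A2. Without every library of line A2, Phlda3 also stood at 0.37 and passed (adjusted p = 0.0144).

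Trp53inp1 (chr4:11156431-11174379), a stress-induced nuclear protein that promotes p53 phosphorylation and autophagy, had 311, 302 and 434 CPM in KO EpiLC and 169, 173 and 189 CPM in WT EpiLC. The KO libraries lay within a narrower range than for Cdkn1a, at 1.76, 1.71 and 2.45 times the WT mean. Its log2 fold change was 0.94 ± 0.12 (SE; adjusted p = 0.00175) and 0.72 (adjusted p = 0.000377) without the library labelled KO A2. Zmat3 (chr3:32334792-32366014), a zinc finger protein that binds RNA, had 185, 195 and 209 CPM in KO and 162, 156 and 156 CPM in WT. The groups did not overlap, but the log2 fold change of 0.27 ± 0.10 (SE) had an adjusted p of 0.0888 (0.20 and 0.294 with the library labelled KO A2 left out). The calls for Cdkn1a, Btg2, Perp and Trp53inp1 held in all 18 fits that leave out 1 library.

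On day 3, only 2 of the 10 genes, Trp53inp1 and Zmat3, were higher in KO than in WT PGCLC, and 0 were lower, against 5.0% of all genes higher and 5.18% lower. The median log2 fold change was 0.02 (0.01 over all genes), and 5 genes were above 0 and 5 below. Trp53inp1 had 382, 371 and 382 CPM in KO and 249, 267 and 281 CPM in WT. The groups did not overlap and the KO lines lay close together, with a log2 fold change of 0.52 ± 0.12 (SE; adjusted p = 0.0111; 0.48 and 0.0584 without WT day 3 library 1). Zmat3 had 193, 194 and 221 CPM in KO and 162, 159 and 165 CPM in WT, a log2 fold change of 0.34 ± 0.10 (SE; adjusted p = 0.0391). Its call was lost in 11 of the 18 fits that leave out 1 library. These were each of the 9 WT libraries (adjusted p 0.0536 to 0.136) and KO B1 and A2 of day 3 (0.061 and 0.167, log2 fold change 0.37 and 0.27).

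Mdm2 stood on the other side of WT on day 3, with 189, 176 and 165 CPM in KO against 250, 246 and 265 CPM in WT. All 3 KO lines were below all 3 WT libraries, at 0.744, 0.694 and 0.653 times the WT mean. The log2 fold change of -0.51 ± 0.28 (SE) did not pass (adjusted p = 0.274). It did once the EpiLC library labelled KO A2 was left out of the shared estimate of the spread (-0.51, adjusted p = 0.00284), and adjusted p ran from 0.00284 to 0.49 over the alternatives. Ccng1 was the other gene with every KO library below every WT library, at 280, 279 and 251 CPM in KO and 293, 300 and 304 CPM in WT, with a log2 fold change of -0.13 ± 0.13 (SE; adjusted p = 0.578). Such a full separation was found downward for 19.3% of all genes and upward for 17.2%, and upward for 3 of the 10, Cdkn1a, Trp53inp1 and Zmat3. Cdkn1a had 71.6, 89.4 and 78.1 CPM in KO and 70.1, 66.6 and 64.6 CPM in WT. The KO line A5 was barely above the highest WT library, and the log2 fold change was 0.26 ± 0.25 (SE; adjusted p = 0.565). Btg2 (0.05), Phlda3 (-0.01), Plk2 (-0.10), Bax (0.20) and Perp (-0.36) had log2 fold changes between -0.36 and 0.20 with adjusted p of 0.323 to 0.991, and their libraries overlapped. In Plk2, Perp and Phlda3 the line A2 library was the highest of the KO libraries, at 48.6, 38.0 and 66.7 CPM, against 24.1 to 24.8, 20.8 to 25.9 and 38.9 to 47.0 CPM in the other KO lines and 33.9 to 37.6, 36.0 to 38.0 and 50.1 to 54.2 CPM in WT. Without all 3 libraries of line A2, Perp (-0.64, adjusted p = 0.00265), Plk2 (-0.52, adjusted p = 0.0198) and Mdm2 (-0.47, adjusted p = 0.00524) were lower in KO.

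On day 5, Trp53inp1 and Zmat3 were again the 2 genes that passed, both higher in KO, against 9.83% of all genes higher and 7.62% lower. Trp53inp1 had 399, 345 and 382 CPM in KO and 252, 240 and 249 CPM in WT (log2 fold change 0.60 ± 0.12, SE; adjusted p = 0.00263). Zmat3 had 229, 176 and 227 CPM in KO and 139, 152 and 151 CPM in WT (log2 fold change 0.52 ± 0.10, SE; adjusted p = 0.00213). Neither gene's libraries overlapped, and both calls held in all 24 alternatives, with adjusted p up to 0.0175. Cdkn1a was likewise apart, with 96.6, 121 and 107 CPM in KO and 64.8, 78.5 and 76.9 CPM in WT. Its log2 fold change of 0.56 ± 0.24 (SE) had an adjusted p of 0.129, and of 0.00111 without the EpiLC library labelled KO A2 (range over the alternatives 0.000516 to 0.315). Mdm2 was again below WT in every line, at 238, 188 and 194 CPM in KO and 282, 287 and 349 CPM in WT, with a log2 fold change of -0.57 ± 0.28 (SE; adjusted p = 0.173). Without the EpiLC library labelled KO A2 its adjusted p was 0.000628, and over the alternatives it ran up to 0.38. Cdkn1a and Mdm2 thus lay on opposite sides of WT on day 5, by full separation of the libraries and not by a call in the fit of all 18 libraries.

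Perp had 32.0, 22.9 and 22.7 CPM in KO and 36.9, 35.5 and 33.3 CPM in WT on day 5, a full separation with a log2 fold change of -0.45 ± 0.32 (SE; adjusted p = 0.37). In all, 3 of the 10 genes were above WT in every library and 2 below, against 21.3% and 20.0% of all genes. Bax had 220, 248 and 295 CPM in KO and 205, 195 and 224 CPM in WT, where KO A5 overlapped WT. Its log2 fold change was 0.29 ± 0.12 (SE; adjusted p = 0.103; 0.40 and 0.0341 without KO A5 of day 5). Ccng1 had 367, 254 and 233 CPM in KO and 331, 295 and 338 CPM in WT, so that line A5 was the highest of the 6 libraries and B1 and A2 the lowest. Its log2 fold change was -0.18 ± 0.13 (SE; adjusted p = 0.398) and without KO A5 of day 5 it was -0.38 (adjusted p = 0.0269). Btg2, Plk2 and Phlda3 had log2 fold changes of -0.20, 0.05 and -0.01 (adjusted p 0.58 to 0.992), and Phlda3 was highest in line A2 at 86.2 CPM, against 56.1 and 52.0 CPM in A5 and B1 and 62.2 to 68.6 CPM in WT. Line A2 also had a chromosome 1 median of 0.29 at this stage. Without every library of line A2, Mdm2 (-0.54, adjusted p = 0.000947), Perp (-0.39, 0.0383) and Phlda3 (-0.29, 0.0264) were lower in KO. In that fit Cdkn1a (0.55, 0.000516) was higher, as were Trp53inp1 (0.57, 1.15e-06) and Zmat3 (0.44, 0.000275).

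**Figure D3:**
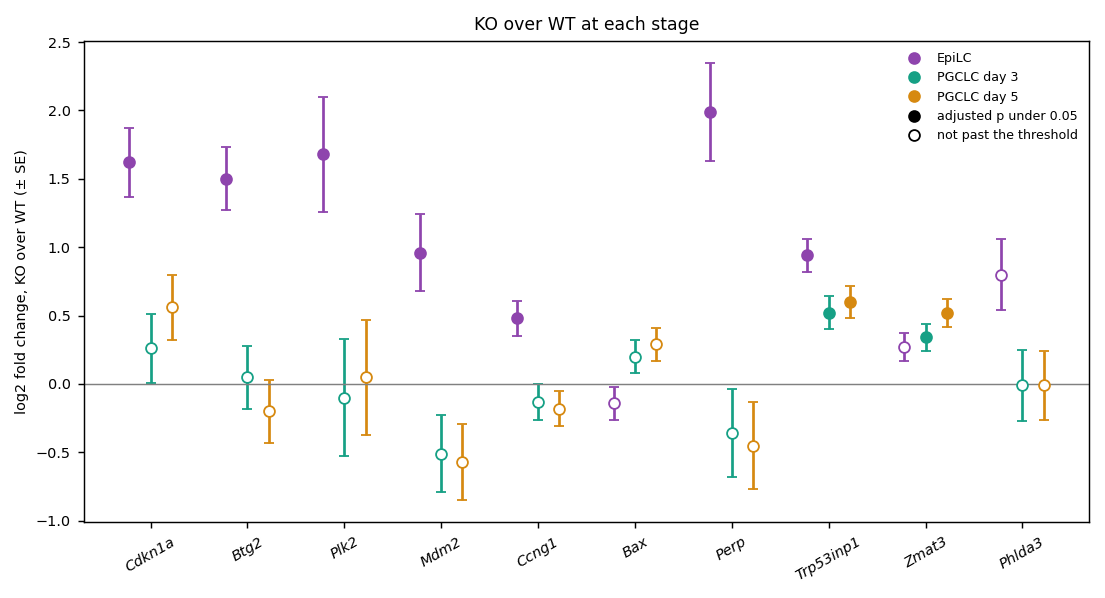
Log2 fold change of KO over WT (y axis, bars give the SE) for each p53 target gene in EpiLC, PGCLC day 3 and PGCLC day 5; filled points have an adjusted p under 0.05. In EpiLC 7 points are filled and above 0, on day 3 and day 5 Trp53inp1 and Zmat3 are, and Mdm2 lies at -0.51 and -0.57 on the later days without passing.

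Read by line, the KO libraries shared their direction for some genes and not for others. Trp53inp1 was 1.40 to 2.45 times and Zmat3 1.17 to 1.55 times the WT mean of the stage in all 9 KO libraries. Cdkn1a was above the WT mean in all 9 as well, at 2.03 to 5.01 times in EpiLC, 1.07 to 1.33 times on day 3 and 1.32 to 1.65 times on day 5. Mdm2 was above it in the 3 EpiLC libraries and at 0.616 to 0.778 times in the 6 PGCLC libraries. Perp was at 2.57 to 7.11 times the WT mean over the EpiLC libraries and at 0.563 to 1.03 times over the PGCLC libraries.

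**Figure D4:**
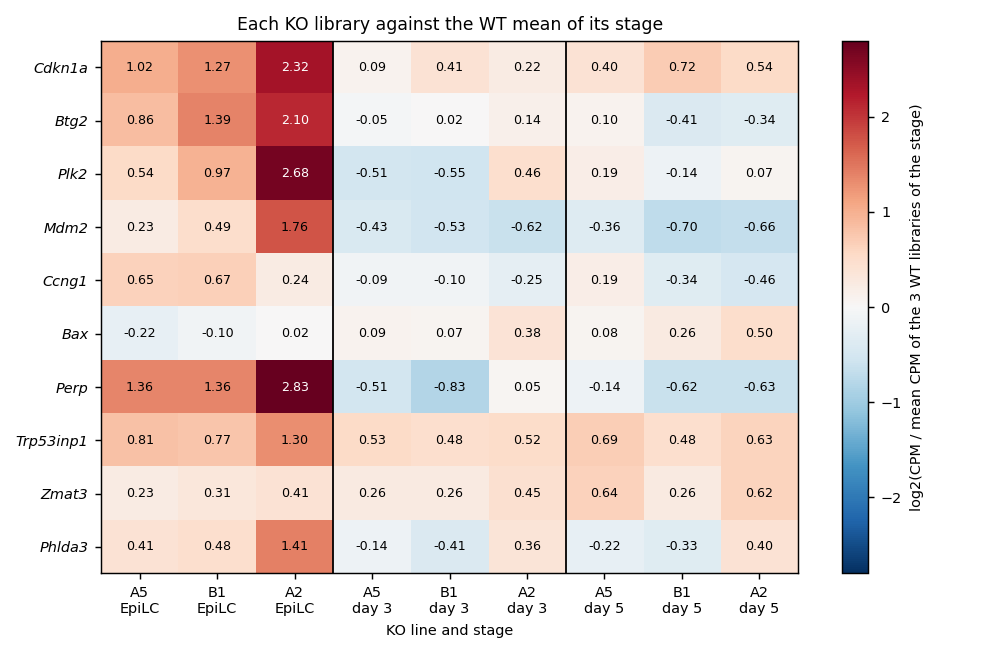
Log2 of the CPM of each KO library over the mean CPM of the 3 WT libraries of its stage, for the 10 genes (rows) and the 9 KO libraries (columns, by stage and line); red is above and blue below WT. The EpiLC library labelled KO A2 has the highest value of its stage for 9 of the 10 genes, with Ccng1 as the exception.

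The step from EpiLC to PGCLC was then compared within each genotype. In KO cells, 5 of the 10 genes were lower on day 3 than in EpiLC and 0 were higher, against 21.4% of all genes lower and 20.6% higher. These were Cdkn1a (log2 fold change -0.87 ± 0.24, adjusted p = 0.00945), Btg2 (-0.93 ± 0.23, 0.00391), Plk2 (-1.92 ± 0.43, 0.00215), Ccng1 (-1.52 ± 0.14, 7.31e-07) and Phlda3 (-0.80 ± 0.26, 0.0203; all SE). The first 4 of these had every day 3 library below every EpiLC library (19.4% of all genes), and 0 separated upward (20.2%). Mean levels on day 3 and in EpiLC were 79.7 and 145 CPM for Cdkn1a, 40.2 and 76.4 CPM for Btg2, and 32.5 and 122 CPM for Plk2. Without the EpiLC library labelled KO A2, Cdkn1a (-0.33, adjusted p = 0.0319), Btg2 (-0.50, 0.012), Plk2 (-0.93, 0.00267) and Ccng1 (-1.63, 2.21e-08) were still lower on day 3. Phlda3 was not called then (-0.36, 0.142), nor without KO A5 (-0.74, 0.0706) or KO B1 (-0.64, 0.0907) of day 3, and Trp53inp1 was higher on day 3 (0.33, 0.00238). Mdm2 (-0.67 ± 0.28, SE; adjusted p = 0.0643) passed with DESeq2 and where EpiLC line A5 or B1 was left out (-0.94, 0.00713 and -0.87, 0.0237), and stood at 0.00 without the library labelled KO A2.

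In WT cells, 3 of the 10 genes were higher on day 3 than in EpiLC and 2 were lower, against 29.0% of all genes higher and 28.5% lower. Perp had 36.6, 38.0 and 36.0 CPM on day 3 and 8.61, 9.28 and 12.0 CPM in EpiLC (log2 fold change 1.83 ± 0.36, SE; adjusted p = 0.000425). Mdm2 averaged 254 CPM on day 3 and 140 CPM in EpiLC (0.80 ± 0.28, SE; adjusted p = 0.0223; 0.0743 and 0.0557 without WT library 3 of EpiLC or of day 3). Trp53inp1 averaged 266 CPM on day 3 and 177 CPM in EpiLC (0.53 ± 0.12, SE; adjusted p = 0.00145). Ccng1 averaged 299 CPM on day 3 and 539 CPM in EpiLC, the largest fall of the 10 (-0.90 ± 0.13, SE; adjusted p = 3.32e-05), so that it was lower on day 3 in both genotypes. Bax was also lower (192 and 229 CPM; -0.31 ± 0.12, SE; adjusted p = 0.0346), a call lost without any of 7 WT libraries: each of EpiLC, libraries 2 and 3 of day 3, and libraries 1 and 2 of day 5 (-0.34 to -0.26, adjusted p 0.0519 to 0.124). Cdkn1a (0.49 ± 0.25, SE; adjusted p = 0.112) and Btg2 (0.52 ± 0.24, SE; adjusted p = 0.0701) had every day 3 library above every EpiLC library without passing. Both passed without the EpiLC library labelled KO A2 (adjusted p = 0.00152 and 0.00511), and Btg2 also without KO A5 of EpiLC (0.0186). Over all 10 genes 5 separated upward and 2 downward, against 41.1% and 35.5% of all genes.

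The difference between the steps of both genotypes, KO minus WT, was tested as an interaction. It was called below 0 for 4 of the 10 genes and above 0 for 0, against 3.63% and 2.96% of all genes. The interaction was -1.36 ± 0.35 for Cdkn1a (adjusted p = 0.0325), -1.46 ± 0.39 for Mdm2 (0.0373), -1.45 ± 0.33 for Btg2 (0.0175) and -2.36 ± 0.48 for Perp (0.0106; all log2, SE). For these genes the KO minus WT difference was thus smaller on day 3 than in EpiLC. Without the library labelled KO A2 they were -0.82, -0.80, -1.03 and -1.65 (adjusted p 0.00191 to 0.00722). Btg2 and Perp were called in all 25 alternatives. Mdm2 lost its call in 11 of the 18 fits that leave out 1 library: each WT EpiLC and WT day 3 library (adjusted p 0.0685 to 0.0887), each KO day 3 library (0.0578 to 0.0769) and WT day 5 libraries 1 and 2 (0.0505 and 0.0518). Cdkn1a lost it in 8: each WT EpiLC and WT day 3 library (0.0634 to 0.0778) and KO A5 and A2 of day 3 (0.0642 and 0.0593). With KO line and WT number as a replicate block, 6 genes were called below 0, and the share of all genes in that fit is not given here. Mdm2 (-1.35, adjusted p = 0.0675) was not called, and Plk2 (-1.62, 0.0452), Ccng1 (-0.61, 0.0139) and Phlda3 (-0.77, 0.00735) were. Without the block, Plk2 stood at -1.78 ± 0.60 (SE; 0.0855), Ccng1 at -0.62 ± 0.19 (SE; 0.0584) and Phlda3 at -0.81 ± 0.36 (SE; 0.19). Plk2 also passed without KO A5 or B1 of EpiLC (-2.14, 0.0202 and -2.05, 0.0336), and Ccng1 without the library labelled KO A2 (-0.73, 0.015) or KO A5 or A2 of day 5 (0.017 and 0.0388). Trp53inp1 (-0.41), Zmat3 (0.07) and Bax (0.34) did not pass with or without the block.

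**Figure D5:**
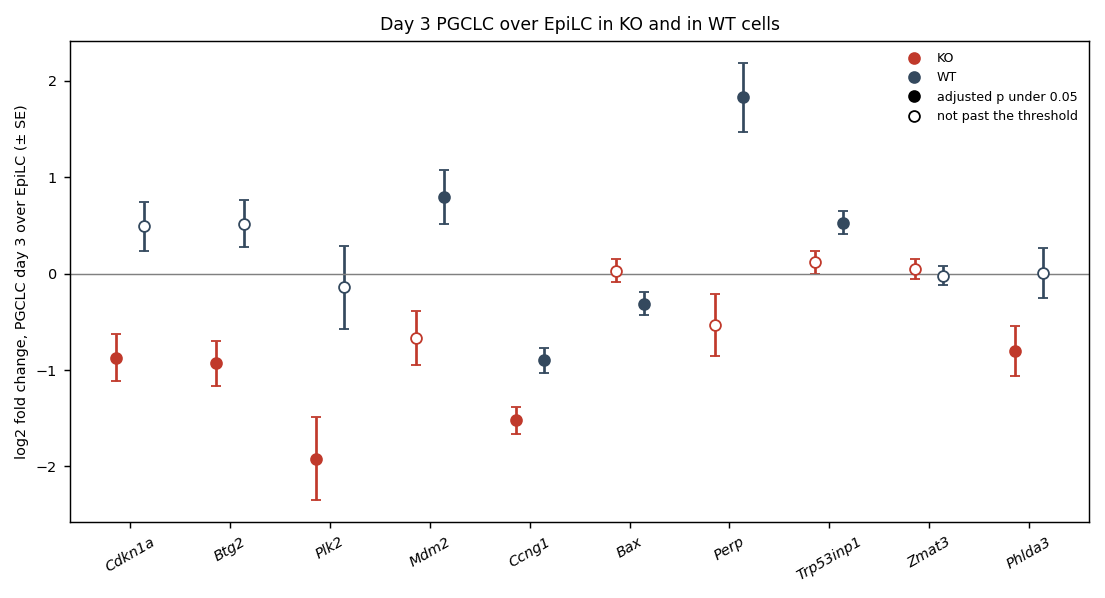
Log2 fold change of PGCLC day 3 over EpiLC (y axis, bars give the SE) for the 10 genes in KO (red, left) and WT (dark, right) cells; filled points have an adjusted p under 0.05. Cdkn1a, Btg2, Mdm2 and Perp lie below 0 in KO and above 0 in WT, and Ccng1 is below 0 in both.

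In the fit of all 18 libraries none of the 10 genes passed the threshold between day 3 and day 5. On day 5, 0 of the 10 genes differed from day 3 in KO or in WT cells with edgeR (0 at an unadjusted p under 0.05, 0 with DESeq2 and 0 with limma in each), against 0.366% higher and 0.187% lower of all genes in KO and 0.288% and 0.482% in WT. Log2 fold changes ran from -0.17 to 0.48 in KO and from -0.15 to 0.34 in WT. In KO, Cdkn1a was the 1 gene with every day 5 library above every day 3 library (8.98% of all genes), and 0 separated downward (4.7% of all genes). Cdkn1a stood at 108 ± 12.2 and 79.7 ± 9.0 CPM (SD, n = 3 each; log2 fold change 0.41 ± 0.24, SE; adjusted p = 0.541). In WT, Mdm2, Btg2, Plk2 and Phlda3 separated upward and Zmat3 downward (22.4% and 18.3% of all genes). When only the 6 WT libraries of both days entered the fit, these 5 genes passed, Mdm2 (0.25), Btg2 (0.33), Plk2 (0.34) and Phlda3 (0.31) as higher and Zmat3 (-0.15) as lower on day 5 (adjusted p 0.00143 to 0.0319), as did 3678 of all 11922 genes tested. The same fit of the 6 KO libraries called 0 of the 10 (1 at an unadjusted p under 0.05). Without all 3 libraries of line A2, Plk2 (0.87, adjusted p = 0.00171) and Cdkn1a (0.41, 0.0478) were higher on day 5 in KO, and Phlda3 (0.31, 0.0149) in WT. The interaction of KO with this step was called for 0 of the 10 genes and, with edgeR, for 0.0% of all genes in either direction (561 of 12856 unadjusted, 7 with DESeq2, 0 with limma).

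Trp53 itself (chr11:69580359-69591873) did not pass between genotypes at any stage. It had 268, 282 and 314 CPM in KO EpiLC and 325, 312 and 292 CPM in WT EpiLC, and only the library labelled KO A2 overlapped WT. The log2 fold change was -0.15 ± 0.10 (SE; adjusted p = 0.316; -0.24 and 0.173 without the library labelled KO A2). On day 3 it was -0.08 ± 0.10 and on day 5 -0.13 ± 0.10 (SE; adjusted p = 0.665 and 0.406). It was higher on day 3 than in EpiLC in KO (0.65 ± 0.10) and in WT cells (0.57 ± 0.10, SE; adjusted p = 9.76e-05 and 0.000132). Mdm4, the p53 inhibitor related to Mdm2, rose over the same step by 1.41 ± 0.20 in KO and 1.94 ± 0.21 in WT (SE; adjusted p = 5.84e-05 and 1.51e-06), and did not pass between genotypes (0.50, -0.03 and 0.06; adjusted p 0.124 to 0.955). Cdkn2a, whose product Arf blocks Mdm2, had 30.6, 26.1 and 98.2 CPM in KO EpiLC and 24.6, 24.0 and 24.8 CPM in WT EpiLC (1.05 ± 0.38, SE; adjusted p = 0.0832; 0.14 and 0.744 without the library labelled KO A2). Among 28 tested genes of p53 and its regulators, called numbers higher and lower in KO were 0 and 2 in EpiLC, 1 and 2 on day 3, and 5 and 2 on day 5. Of all tested genes, 6.93% were higher and 4.15% lower in EpiLC, 5.0% and 5.18% on day 3, and 9.83% and 7.62% on day 5. Without the EpiLC library labelled KO A2 these shares were 2.29% and 2.28%, 9.57% and 9.24%, and 15.1% and 12.5%, and the numbers for the list were 0 and 1, 4 and 4, and 6 and 4. Usp10, a deubiquitinase of p53, was lower in KO at all 3 stages (-0.37 ± 0.08, -0.80 ± 0.08 and -0.53 ± 0.08, SE; adjusted p = 0.0131, 1.62e-05 and 0.000278).

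A wider list held 37 further p53 targets. Of these, 34 passed the filter, and 6 were higher and 0 lower in KO EpiLC, against 6.93% and 4.15% of all genes, with a median log2 fold change of 0.26. The largest were Rb1, the retinoblastoma gene (1.22 ± 0.17, SE; adjusted p = 0.0022), the bypass polymerase gene Polk (0.96 ± 0.26; 0.0274), Apaf1 of the apoptosome (0.93 ± 0.15; 0.00431) and the epoxide hydrolase gene Ephx1 (0.92 ± 0.26; 0.0331). Without the library labelled KO A2, Rb1 (1.02, 0.00279) and Apaf1 (0.64, 0.00168) passed and Polk (0.41, 0.104) and Ephx1 (0.63, 0.228) did not, and the list held 4 higher and 1 lower. On day 3, 1 was higher and 3 lower (median -0.03), against 5.0% and 5.18% of all genes, or 5 and 4 without the EpiLC library labelled KO A2, against 9.57% and 9.24%. Gadd45a, a stress sensor of DNA demethylation and repair, was lower in KO (25.7 against 70.8 CPM in WT; -1.44 ± 0.17, SE; adjusted p = 6.64e-05), as were the antiproliferative gene Tob1 (-0.83 ± 0.20; 0.0147) and Rb1 (-0.65 ± 0.16; 0.0155). Sesn2, a stress-induced inhibitor of mTORC1, was higher (0.63 ± 0.13; 0.00516). On day 5, 5 were higher and 2 lower (median 0.12), against 9.83% and 7.62% of all genes, or 8 and 3 without that library, against 15.1% and 12.5%. Among them were Trp73 (2.00 ± 0.34; 0.000713), Ddit4 (0.80 ± 0.15; 0.00152) and Sesn2 (0.71 ± 0.13; 0.00109) higher and Gadd45a lower (-1.58 ± 0.17; 1.19e-05). Gadd45a and Cdkn1a, both classical damage targets, thus differed from WT on opposite sides in PGCLC, the second without a call. Of the further targets 28 had a RefSeq window, 7 of them with a decamer and 2 with an element of at most 2 mismatches, which 262 windows (0.798%) held.

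Genes downstream of p21 and the apoptosis family gave the following counts, to be read against 6.93%, 5.0% and 9.83% of all genes higher in EpiLC, on day 3 and on day 5. Of 22 cell cycle genes of G2 and mitosis that p21 lowers through the DREAM complex, 0 were called in KO EpiLC with edgeR (median -0.09), 1 was higher on day 3 (Cenpe, 0.32 ± 0.09, SE; adjusted p = 0.0368) and 4 on day 5 (median 0.23), with Nusap1 (0.72 ± 0.15; 0.00389) the largest. With the EpiLC library labelled KO A2 left out, 0, 4 and 9 of the 22 were higher and 0, 0 and 1 lower in the order of the stages, against 2.29%, 9.57% and 15.1% of all genes higher. Of 14 BCL2 family genes tested, 0 were called in EpiLC (median 0.18) and on day 3, and 2 were higher on day 5, Bmf (0.57 ± 0.18; 0.0384) and Bid (0.32 ± 0.09; 0.0285), or 0, 2 and 3 higher over the stages without that library. Of 7 other inhibitors of cyclin-dependent kinases, 2 were higher in EpiLC, 1 on day 3 and 2 on day 5, or 0, 2 and 4 without that library. Cdkn1b, encoding p27, was among them at each stage, with log2 fold changes of 0.62 ± 0.19, 0.71 ± 0.18 and 0.89 ± 0.18 (SE; adjusted p = 0.0459, 0.0175 and 0.00263; in EpiLC 0.60 and 0.123 without the library labelled KO A2). Cdkn2b was higher in EpiLC (2.20 ± 0.61; 0.0319), but not without that library (0.75, 0.28).

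Markers of stress and of other cell types moved beside the p53 targets. Of 19 tested immediate-early and dissociation stress genes, 5 were higher in KO EpiLC (median 0.98), 5 on day 3 (0.62) and 4 on day 5 (0.44), and 0 were lower, against 6.93%, 5.0% and 9.83% of all genes higher. The numbers without the EpiLC library labelled KO A2 were 4, 10 and 11 higher and 0 lower, against 2.29%, 9.57% and 15.1% of all genes higher. Their sum over 20 genes was 641, 519 and 1309 CPM in KO and 471 to 605 CPM in WT EpiLC, 1179 to 1242 CPM in KO and 820 to 844 CPM in WT on day 3, and 1185 to 1229 CPM in KO and 819 to 910 CPM in WT on day 5. Junb (3.65 ± 0.71, SE; adjusted p = 0.0106) and Jun (1.70 ± 0.34; 0.0114), subunits of AP-1, were higher in KO EpiLC, also without the library labelled KO A2 (2.08 and 1.05; adjusted p = 0.00241 and 0.0224). Of the marker lists, 8 of 11 tested trophoblast genes, 5 of 9 endoderm genes and 3 of 10 mesenchyme genes were higher in KO EpiLC (1, 3 and 3 without that library), 1 mesenchyme gene was lower, and 4 of 11 formative epiblast genes were lower with and without it. The trophoblast and endoderm lists share Krt8 and Krt18, and the naive pluripotency and germ cell lists share Prdm14 and Dppa3. Of the lists above, Trp73 is in both the further p53 targets and the regulators. Cdkn2a is in both the regulators and the kinase inhibitors, and Bbc3 and Pmaip1 are in both the further targets and the BCL2 family. Of 12 naive pluripotency genes 0 were higher and 1, 4 and 3 lower in the order of the stages, against 4.15%, 5.18% and 7.62% of all genes lower. Leaving out that library gave 5, 7 and 8 lower and 0, 0 and 1 higher, against 2.28%, 9.24% and 12.5% of all genes lower. The naive list holds Esrrb, the targeted gene itself. Esrrb is counted as lower on day 3 and day 5 and, without that library, at every stage. Of 12 germ cell genes 1, 1 and 2 were higher and 0, 0 and 1 lower, or 1, 2 and 2 higher and 1, 2 and 3 lower without that library. The part of these differences in the levels of the p53 targets was not tested.

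Among all tested genes, those closest to Cdkn1a in pattern over the 18 libraries were Nek6 (root mean square difference 0.26 in centred log2 CPM), Lnx2, Ergic1, Rab31 and Ptpn21 (each 0.28). Nek6 averaged 38.7 CPM in KO and 17.2 CPM in WT EpiLC, 26.4 and 23.9 CPM on day 3, and 27.7 and 25.8 CPM on day 5, in the same order of genotypes. Of the other 9 p53 targets, Btg2 stood closest, at rank 10 (0.30), then Trp53inp1 at rank 31 (0.33) and Phlda3 at rank 125. Zmat3, Plk2, Mdm2, Bax and Perp were at ranks 534 to 2487, and Ccng1 at rank 8547 (0.77). This is a description over libraries that share groups and lines, and the library labelled KO A2 is the highest of the 18 in Cdkn1a and Nek6.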

How the data were processed

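Counts per gene and library, and a table of CPM (counts scaled to the library total), were deposited by the authors. The deposited CPM of all 18 columns matched the deposited counts once scaled, within 1e-06. Rows without a gene ID (56, at most 0.0828% of the counts of a library) were left out. The submitters' processing notes name Trim Galore 0.4.3.1 and the builds mm10 and GRCm38.p4. Aligner, counting tool, annotation and strand setting: not given in the sources used here. Reads of overlapping antisense genes therefore cannot be told apart. Late PGCLC are called day 6 in some descriptions, and line A2 is KO2 in titles.

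Counts were fitted in R 4.3.3 with edgeR 4.0.16. Genes that passed filterByExpr (12856) were scaled by TMM (0.964 to 1.04) and fitted by robust quasi-likelihood with a mean per group over all 18 libraries, with Benjamini-Hochberg adjustment over all tested genes and a threshold of 0.05. The 9 comparisons were KO against WT at 3 stages, each of 2 successive stage steps in KO and in WT, and 2 interactions of genotype and step. Alternatives were RLE size factors, no filter, DESeq2 1.42.0, limma 3.58.1 on log2(CPM + 1), only the groups compared, a replicate block, and leaving out single libraries or line A2. The replicate block held both the KO line and the number of the WT library. KO lines were paired over stages (correlation of deviations 0.11 to 0.588), and WT numbers were not (-0.048 to 0.066). No library pair of a group looked like a repeat deposit. The chi-square per degree of freedom was 1.135 to 1.875 between WT libraries of a stage and 4.118 to 36.026 between KO lines. The fit of all 18 libraries used 1 estimate of the spread per gene for both. Chromosome medians used genes of at least 5 CPM on average and log2 ratios with 0.5 CPM added.

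The 10 genes and all further gene lists were chosen with earlier results of these data known. Named genes are the 10, Esrrb, Trp53, Mdm4 and Cdkn2a, up to 4 called genes per list and comparison with the largest changes, and the 5 genes closest to Cdkn1a by root mean square difference in log2 CPM (prior count 2). Positions are from GENCODE M21 (GRCm38), which may differ from the annotation used for counting. No SD or interval covers more than the spread or counting error of these libraries.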

Additional observations from a re-analysis of the deposited data

Results flagged for a closer look

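For 4 of the 10 genes the change from EpiLC to day 3 differed between KO and WT cells by a test of the difference itself, the interaction in edgeR. The interaction, KO minus WT on the log2 scale, was -1.36 for Cdkn1a, -1.46 for Mdm2, -1.45 for Btg2 and -2.36 for Perp. In Perp the step was -0.53 in KO and 1.83 in WT cells, and in Mdm2 it was -0.67 in KO and 0.80 in WT cells. Without the EpiLC library labelled KO A2 the 4 values were -0.82, -0.80, -1.03 and -1.65, and all 4 were still called. With KO line and WT number as a replicate block, Mdm2 was not called (-1.35, adjusted p = 0.0675) and the other 3 were. Mdm2 and Cdkn1a also lost their calls in 11 and 8 of the 18 fits that leave out 1 library.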

How the results depend on the processing

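Of 90 values of the 10 genes (10 genes in 9 comparisons), 25 passed the threshold, and none of these 25 changed sign under any alternative. Over 2220 alternative values, 2019 kept direction and side of the threshold, 83 lost a call, 59 gained one and 59 changed sign. The cause of these changes was not tested. Fits of fewer groups or libraries estimate the spread from those samples alone.

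The count of genes higher in KO EpiLC was 7 and became 0 with only the groups compared. On day 3 it was 1 higher without a filter, and lower calls were 1 with only the groups compared and 3 without line A2. On day 5 lower calls were likewise 1 and 3. For WT day 3 over EpiLC, limma gave 5 higher and 1 lower, no filter 1 lower, and only the groups compared and no line A2 5 higher each. For WT day 5 over day 3, only the groups compared gave 4 higher and 1 lower, and no line A2 1 higher. For KO day 3 over EpiLC, only the groups compared gave 1 lower and no line A2 1 higher, and for KO day 5 over day 3 no line A2 gave 2 higher. The induction interaction had 7 below 0 without line A2. With only the groups compared, all genes called in either direction were 0 in KO EpiLC, 1708 on day 3 and 2407 on day 5. They were 9385 for WT day 3 over EpiLC, 3678 for WT day 5 over day 3 and 2161 for KO day 3 over EpiLC. Shares of all genes in the other fits of this paragraph are not given here.

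Leaving out 1 library moved the counts to 4 to 8 higher in KO EpiLC, 0 to 2 higher and 0 to 1 lower on day 3, 2 to 3 higher and 0 to 1 lower on day 5, 2 to 5 higher and 1 to 2 lower for WT day 3 over EpiLC, 0 to 1 higher and 4 to 6 lower for KO day 3 over EpiLC, and 2 to 5 below 0 for the induction interaction. The counts of both day 5 over day 3 steps and of the maturation interaction stayed at 0 to 0. Calls among all genes, in either direction, moved over the same fits as well. They were 181 to 2473 in KO EpiLC, 621 to 2453 on day 3 and 1303 to 3596 on day 5. For day 3 over EpiLC they were 6511 to 8253 in WT and 4468 to 6530 in KO, and for the induction interaction 361 to 1527. For day 5 over day 3 they were 10 to 604 in WT and 9 to 349 in KO, and for the maturation interaction 0 to 8.

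The values that changed sign had not passed the threshold. They were Btg2 on day 3 (-0.02 without line A2; -0.03 to 0.10 leaving out 1 library), Phlda3 (0.00 with RLE; -0.02 to 0.04) and Zmat3 (0.01 without a filter, 0.03 with limma; -0.03 to 0.01) for WT day 3 over EpiLC, and Mdm2 for KO day 3 over EpiLC (-0.67, but 0.03 without line A2). Perp for KO day 5 over day 3 was 0.16 without line A2 (-0.34 to 0.10 leaving out 1 library). In the maturation interaction Phlda3 was 0.00 (RLE, DESeq2 and the replicate block), -0.01 (no filter) and -0.04 (no line A2), Perp 0.25 and Ccng1 0.03 (no line A2). Leaving out 1 library gave Phlda3 -0.26 to 0.15 and Plk2 -0.52 to 0.07 on day 3, and Plk2 -0.02 to 0.15 and Phlda3 -0.29 to 0.13 on day 5. For KO day 3 over EpiLC it gave Zmat3 -0.01 to 0.12, Bax -0.07 to 0.12 and Perp -0.80 to 0.18, against -0.53 over all libraries, with the 0.18 found without the library labelled KO A2. For KO day 5 over day 3 it gave Zmat3 -0.05 to 0.13, Ccng1 -0.17 to 0.15, Btg2 -0.07 to 0.18 and Trp53inp1 -0.08 to 0.01. It gave Zmat3 -0.02 to 0.14 in the induction interaction, and Phlda3 -0.28 to 0.25, Plk2 -0.03 to 0.56, Perp -0.26 to 0.19, Mdm2 -0.16 to 0.04, Ccng1 -0.25 to 0.07 and Bax -0.04 to 0.20 in the maturation interaction.

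With the replicate block the induction interaction was called for 6 genes in place of 4: Mdm2 was lost and Plk2, Ccng1 and Phlda3 were gained. The share of all genes called in that fit is not given here. No other call of a step or interaction changed among the 10 genes. At 34 counts in its lowest library, Perp is the gene whose values depth limits most.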
